A study of Mus musculus with 15 samples.

Results

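A set of 10 cell cycle genes was followed in cultured white adipocytes kept at 31°C: the D-type cyclins Ccnd1, Ccnd2 and Ccnd3, the E-type cyclin Ccne1, the A-type cyclin Ccna2, the B-type cyclins Ccnb1 and Ccnb2, and the cyclin-dependent kinases (CDKs) Cdk1, Cdk2 and Cdk4. These 10 were taken by name from the 18804 genes of the count table, and the set was chosen with earlier results of these data known. RNA was sequenced from adipocytes that had been differentiated in culture from ear mesenchymal stem cells of wild-type C57BL/6J mice. The 3 groups held 5 libraries each, and every culture was harvested 16 days after differentiation began. Day 0 cells never left 37°C, day 1 cells were moved to 31°C on day 15, and day 12 cells were moved on day 4. The 12 days at 31°C therefore covered most of the time in which these cells matured, and time at 31°C cannot be told apart from the stage at which the move was made. No cells carried a transgene or drug treatment beyond the differentiation mixture, which all groups received. Whether the 5 libraries of a group are separate isolations or dishes is not given in the labels, so p-values measure the spread between libraries, which may be technical.

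Cyclins are proteins that switch on CDKs, and their own supply sets when each kinase is active. D-type cyclins are made in response to growth signals and act with Cdk4 and Cdk6 on the retinoblastoma protein, which frees E2F factors, and E-type cyclins with Cdk2 then carry cells into DNA synthesis. A-type cyclins act with Cdk2 and Cdk1 through DNA synthesis, and B-type cyclins with Cdk1 drive mitosis before they are destroyed. Mature adipocytes are regarded as cells that have left the cycle, and D-type cyclins and Cdk4 are also studied in fat cells for roles outside cell division.

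After 12 days at 31°C, the transcripts of the mitotic cyclins rose most: Ccnb2 6.35-fold, Ccna2 4.98-fold and Ccnb1 4.47-fold over day 0. Cdk1 rose 1.93-fold, Ccne1 1.62-fold and Ccnd1 1.60-fold, while Ccnd3 fell to 0.658 of its day 0 level. After 1 day the pattern differed, with Ccnb1 and Ccnb2 higher by 1.87-fold and 1.95-fold and Ccnd2 and Ccnd3 lower, at 0.556 and 0.657 of day 0. A gene was called when its Benjamini-Hochberg adjusted p by edgeR's quasi-likelihood test was under 0.05 over all 14293 genes tested and its fold change was over 1.5. All 10 genes passed the filter on low counts, with at least 197 counts in any library. At day 12, 6 of the 10 were called higher and 1 lower, against 13% and 16.2% of all genes tested. At day 1, 2 were called higher and 2 lower, against 7.71% and 13.4% of all genes. Between day 12 and day 1, 6 were called higher at day 12 and 0 lower, against 10.6% and 8.53% of all genes. The count of 0 came from edgeR, and 0 members were lower at day 12 than at day 1 at an unadjusted p under 0.05 or called so by DESeq2. The median log2 fold change of the 10 was 0.69 at day 12 and 0.17 at day 1, beside 0.01 and -0.01 over all genes. Both comparisons share the day 0 libraries.

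**Figure D1:**
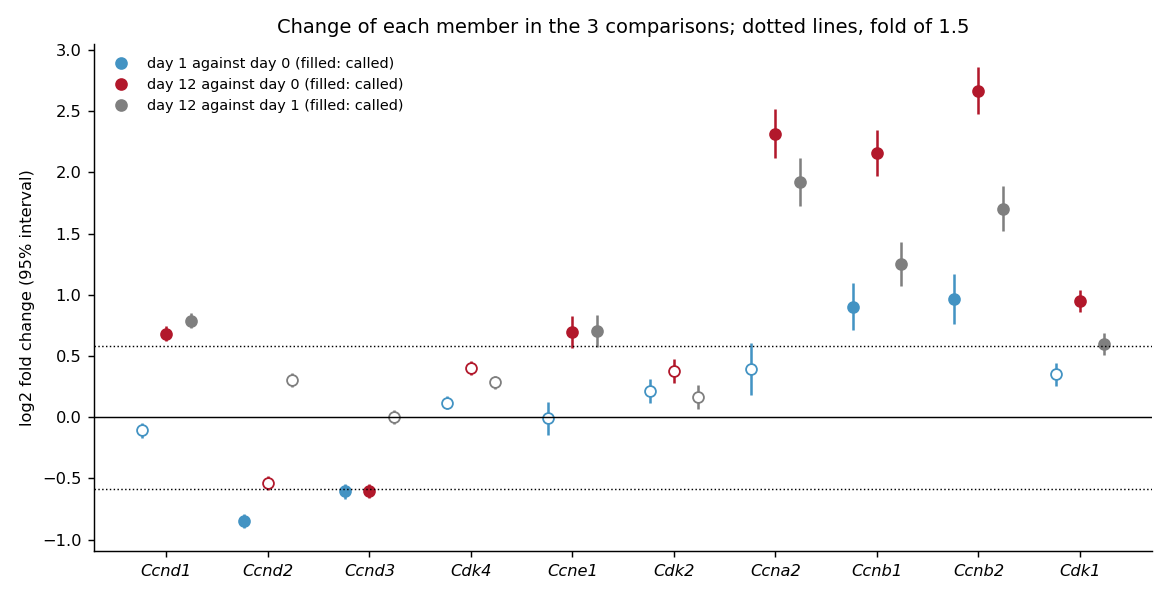
The log2 fold change of each gene (vertical axis) with its 95% interval is plotted for day 1 against day 0 (blue), day 12 against day 0 (red) and day 12 against day 1 (grey). Filled points were called, open points were not, and dotted lines mark a fold change of 1.5. The red points of Ccna2, Ccnb1 and Ccnb2 lie above 2, while those of Ccnd2 and Ccnd3 lie below 0.

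The culture as a whole bears on these values. Adipocyte genes were abundant in every library, as the summed level of 10 adipocyte markers ranged from 5503 to 6073 CPM (counts scaled to a common library size by TMM) at day 0, 6493–6990 CPM at day 1 and 5017–5606 CPM at day 12. Of these 10 markers, 2 were called higher, 5 lower and 3 neither at day 12. Fabp4 was among the higher ones (log2 fold change 0.97, mean 828 CPM at day 0 and 1617 CPM at day 12). Adipoq (-1.24) and Pparg (-0.59) were among the lower ones. Markers of other cell types moved too. The sum of 6 chondrocyte markers was 3681 to 4416 CPM at day 0 and 1153 to 1250 CPM at day 12, mostly from Comp. Of 5 tested, 3 were called lower at day 12 and 1, Col9a1, higher (log2 fold change 1.05), while Col2a1 (0.29) was not called. A sum of 10 epithelial and mesothelial markers went from 9.64–11.6 CPM to 29.5–43.8 CPM, mostly from Msln, while 8 of the 10 were under 1 CPM at day 0 and 7 at day 12. Krt5, Krt14 and Wt1 of that list and Matn1 of the chondrocyte list were at 0 in every day 12 library. Of 10 stromal and adipocyte progenitor markers, 8 were tested and 4 were called lower at day 12, and their sum went from 1761–1837 to 1434–1446 CPM. Of 6 smooth muscle and pericyte markers 4 were called lower, and the sums at the 2 times were 724–799.7 and 578–699.9 CPM. Sums of macrophage markers stayed at 14.1 CPM or less, of endothelial markers at 1.79 or less and of skeletal muscle markers at 1.39 or less, and those of Schwann markers were 68.0–73.8 CPM at day 0 and 66.4–74.3 CPM at day 12. The part of these cell types in the results below was not tested, and in such bulk RNA more dividing cells and more transcript per cell cannot be told apart.

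Promoters of the genes that moved together were compared first, since genes of the late cell cycle are known to carry CCAAT boxes and, in many cases, a cell cycle homology region (CHR). RefSeq promoter windows (build GRCm38.p6, 250 bases before to 50 after the start site) matched 7 of the 10 genes, with 8 windows in all because Ccnd3 had 2. No window was matched for Ccna2, Ccnd1 and Ccnd2. The 150 bases before the start site are given for Ccnb1 (chr13:100786487-100786636), Ccnb2 (chr9:70421555-70421704), Cdk1 (chr10:69352913-69353062) and Ccne1 (chr7:38107491-38107640), all on the minus strand, because these 4 were called higher at day 12 and had a matched window. Those of Cdk4 (chr10:127063385-127063534, plus strand) are set beside them as a gene of the same family that was not called. Each reads 5′ to 3′ toward the gene, and capitals mark CCAAT on either strand (CCAAT or ATTGG) and the CHR words.
Ccnb1: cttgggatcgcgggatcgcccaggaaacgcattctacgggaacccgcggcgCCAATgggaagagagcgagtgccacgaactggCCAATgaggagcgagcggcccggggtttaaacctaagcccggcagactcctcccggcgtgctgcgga
Ccnb2: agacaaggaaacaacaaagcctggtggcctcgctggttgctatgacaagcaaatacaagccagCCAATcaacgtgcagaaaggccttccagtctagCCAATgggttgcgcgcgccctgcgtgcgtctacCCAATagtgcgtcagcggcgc
Cdk1: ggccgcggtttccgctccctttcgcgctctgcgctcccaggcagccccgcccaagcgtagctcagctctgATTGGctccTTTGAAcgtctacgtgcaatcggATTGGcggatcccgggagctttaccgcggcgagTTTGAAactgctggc
Ccne1: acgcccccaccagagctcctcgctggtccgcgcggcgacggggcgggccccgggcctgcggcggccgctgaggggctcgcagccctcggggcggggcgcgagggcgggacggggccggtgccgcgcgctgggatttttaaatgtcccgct
Cdk4: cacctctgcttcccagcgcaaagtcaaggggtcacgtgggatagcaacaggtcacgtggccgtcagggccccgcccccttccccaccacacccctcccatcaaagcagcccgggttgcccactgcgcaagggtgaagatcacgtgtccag

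The words searched on both strands were TTTGAA or TTCGAA for the CHR, CCAAT for the CCAAT box, GGGCGG for the GC box, TTTGGCGC or TTTCCCGC or TTTCGCGC or TTTGCCGC for E2F sites, TGACGTCA for the CRE, TGACTCA for AP-1, with its reverse complement, and the word TATAAA for the TATA box. Ccnb1 held 2 CCAAT boxes, Ccnb2 held 3 and Cdk1 held 3, while Ccne1, also called higher, held neither a CCAAT box nor a CHR word. At least 2 CCAAT boxes were found in 11.7% of 32851 mouse promoter windows. In Ccnb1, Ccnb2 and Cdk1 a pair of these boxes lay 32 or 33 bases apart, counted from start to start, which was seen in 0.606% of all windows; this spacing was looked at after the members' boxes were seen. In Ccnb1 the pair lay 99 and 67 bases before the start site, in Ccnb2 the boxes lay 87, 54 and 21 bases before it, and in Cdk1 the pair lay 80 and 48 bases before it, on the opposite strand. Cdk1 held 2 CHR words before the start site, and Ccnb2 held 1 at 167 bases before it and 1 just after it, while a CHR word occurred in 19.2% of all windows. Cdk1 and Cdk2 each held 1 E2F word, which 2.26% of windows held. Cdk2 and the second Ccnd3 window held 1 CCAAT box, and the Cdk4 window and the first Ccnd3 window held none. GC boxes were in all 8 windows and in 35.7% of all windows. No member window held the CRE (1.79% of windows), AP-1 (5.2%) or TATA word (13.6%), and no matches of different motifs overlapped. A match describes letters in these windows and shows no binding.

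**Figure D2:**
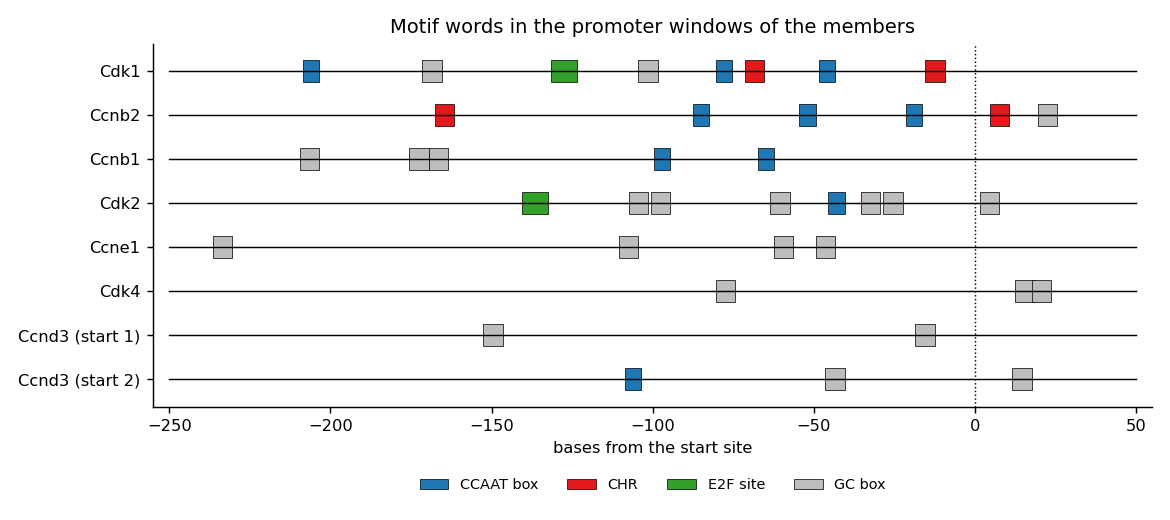
Each line is a RefSeq promoter window of a member, with bases from the start site on the horizontal axis and boxes for CCAAT (blue), CHR (red), E2F (green) and GC box words (grey). Closely spaced CCAAT pairs are seen in Cdk1, Ccnb2 and Ccnb1, and the lines of Ccne1, Cdk4 and the first start of Ccnd3 hold grey boxes and no blue ones.

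The D-type cyclins, which couple growth signals to the cycle, moved in different directions. Ccnd1 stood at 263, 269.8, 248, 259 and 274 CPM in the day 0 libraries, at 242, 251, 246, 236 and 245 CPM at day 1, and at 425, 439.8, 424, 402 and 416 CPM at day 12. All day 12 libraries were above all others, while day 0 and day 1 overlapped. Ccnd1 rose at day 12 by 0.68 on the log2 scale (SE 0.03, adjusted p 3.34e-16), and at day 1 the log2 fold change was -0.11 (SE 0.03), under the fold limit. Ccnd2, the D-type cyclin with the most counts, read 659, 633, 662, 651 and 652 CPM at day 0, then 363, 368, 372, 358 and 352 CPM at day 1, and 469.97, 465, 438, 425 and 444 CPM at day 12. The 3 groups were fully apart, with day 12 between the other two. Ccnd2 fell at day 1 by 0.85 on the log2 scale (SE 0.03, adjusted p 5.85e-18), and its day 12 value of -0.54 (SE 0.03, adjusted p 1.20e-14) missed the fold limit of 1.5. Ccnd3 had 265, 250.5, 262, 262 and 255 CPM at day 0, against 177, 165, 165, 172 and 170.1 CPM at day 1 and 168, 181, 165, 169 and 169 CPM at day 12. The lower groups overlapped each other and lay wholly under day 0. Ccnd3 fell by 0.61 at day 1 and by 0.60 at day 12 on the log2 scale (SE 0.03 in both, adjusted p 3.43e-15 and 1.81e-15), and the difference between these times was 0.003 with a 95% interval from -0.06 to 0.06. The day 12 call of Ccnd3 lay close to the fold limit and was lost with scaling to total counts (-0.41) or to reference genes (-0.55).

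Cdk4, the kinase partner of D-type cyclins, read 109, 107, 107.5, 100.3 and 106 CPM at day 0, then 117, 115, 111, 118 and 114 CPM at day 1, and 142, 139.9, 138, 139 and 139.9 CPM at day 12. The groups did not overlap, although the steps were small. Its log2 fold change was 0.12 (SE 0.03) at day 1, but 0.02 (adjusted p 0.617) with scaling to reference genes. At day 12 it was 0.40 (SE 0.03, adjusted p 8.93e-13), or 1.32-fold, under the fold limit. With scaling to total counts, the value was 0.59 and was called, while the median of all genes at day 12 was 0.205 under that scaling, beside 0.01. Cdk6, the other kinase that D-type cyclins bind, had a mean of 4.04 CPM at day 0, 2.01 CPM at day 1 and 4.24 CPM at day 12. It fell at day 1 by 1.02 on the log2 scale (adjusted p 2.37e-08), and at day 12 its log2 fold change was 0.07 (adjusted p 0.555).

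All 10 genes are protein-coding in GENCODE M21. On build GRCm38, the genes Ccna2 (chr3:36564865-36572150), Ccnb1 (chr13:100778650-100786570), Ccnb2 (chr9:70407692-70421547), Ccnd1 (chr7:144929931-144939925), Ccnd2 (chr6:127125162-127152193), Ccne1 (chr7:38097984-38107534), Cdk1 (chr10:69335146-69352938) and Cdk2 (chr10:128697939-128705031) lie on the minus strand, and Ccnd3 (chr17:47505051-47599691) and Cdk4 (chr10:127063534-127067920) on the plus strand. Exons on the opposite strand overlap several of these genes, and the sources used here do not state whether counting used strand. In GENCODE M21, 23.4% of Ccnd1 exon bases lie in exons of LTO1 (Oraov1 in the count table), 19.7% of Cdk4 bases in Tspan31, 12.5% of Ccna2 bases in Exosc9, 7.86% of Ccnd2 bases in 9330179D12Rik and Gm43126, 4.11% of Ccnd3 bases in Bysl and 0.547% of Cdk2 bases in Pmel. The log2 fold change at day 12 was -0.28 for Oraov1, -0.49 for Tspan31 and 0.60 for Exosc9, beside 0.68 for Ccnd1, 0.40 for Cdk4 and 2.32 for Ccna2. At day 1, Exosc9 had a log2 fold change of 0.73, beside 0.40 for Ccna2. Ccnb1, Ccnb2, Ccne1 and Cdk1 shared no exon bases with another gene. Ccnb1 has 4 pseudogenes at least 95% identical to it over part of its transcript, the closest being Ccnb1-ps at 99.22% over 1287 bases, and Ccnd3 has 1, Ccnd3-ps, at 96.25% over 881 bases. None of these copies had a row in the count table, so reads shared with them could not be measured.

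Ccne1, the cyclin that opens DNA synthesis with Cdk2, read 7.40, 7.60, 6.65, 7.17 and 7.65 CPM at day 0, then 7.80, 6.74, 6.66, 7.38 and 7.64 CPM at day 1, and 11.3, 11.2, 13.2, 11.5 and 11.9 CPM at day 12. Day 0 and day 1 covered the same range, and every day 12 library was higher. Ccne1 rose at day 12 by 0.70 on the log2 scale (SE 0.06, adjusted p 3.50e-10). At day 1 the log2 fold change was -0.01 with a 95% interval from -0.14 to 0.12 (adjusted p 0.904), and its sign turned with scaling to total counts (0.01). Ccne2, its close relative, had a mean of 2.65 CPM at day 0, 2.06 CPM at day 1 and 4.21 CPM at day 12, and rose at day 12 by 0.67 on the log2 scale (adjusted p 8.67e-07).

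Cdk2 read 13.7, 14.5, 12.3, 13.1 and 12.6 CPM at day 0, then 15.2, 15.6, 15.2, 15.02 and 15.6 CPM at day 1, and 18.6, 16.7, 16.7, 16.9 and 16.7 CPM at day 12. The groups were apart, but the whole span from the lowest to the highest library was narrow. Its log2 fold change was 0.21 (SE 0.05, adjusted p 3.69e-04) at day 1 and 0.38 (SE 0.05, adjusted p 1.47e-07) at day 12, with a 95% interval at day 12 from 0.28 to 0.47 that lay below the fold limit of 0.58. Cdk2 was thus not called at either time. With scaling to reference genes its day 1 value was 0.12 (adjusted p 0.0513).

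**Figure D3:**
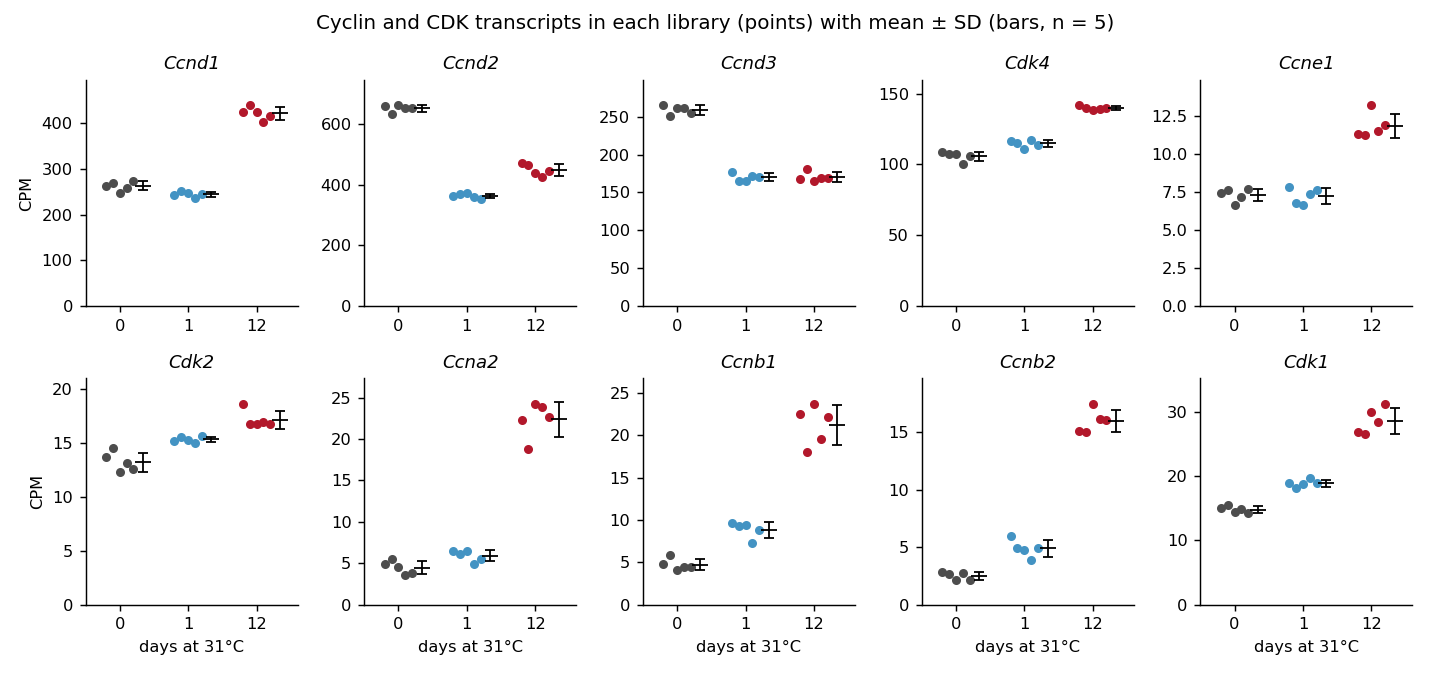
Each panel plots the level of a gene in CPM (vertical axis, from 0) against days at 31°C, with points for the 5 libraries of a group and a bar for their mean ± SD. The day 12 points of Ccna2, Ccnb1 and Ccnb2 start at 18.8, 17.998 and 14.996 CPM, above every day 0 and day 1 point of the same gene.

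Ccna2, which acts with Cdk2 and Cdk1 through DNA synthesis and into mitosis, read 4.93, 5.51, 4.59, 3.56 and 3.799 CPM at day 0, then 6.53, 6.10, 6.44, 4.95 and 5.51 CPM at day 1, and 22.3, 18.8, 24.3, 23.8 and 22.6 CPM at day 12. The day 0 and day 1 ranges overlapped, and the lowest day 12 library was far above both. Ccna2 rose at day 12 by 2.32 on the log2 scale (SE 0.10, adjusted p 1.50e-16), and its day 1 value was 0.40 (SE 0.10, adjusted p 0.00134), under the fold limit.

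Ccnb1, the main activator of Cdk1 at mitosis, read 4.78, 5.93, 4.09, 4.46 and 4.51 CPM at day 0. The day 1 libraries read 9.69, 9.26, 9.36, 7.30 and 8.80 CPM and those of day 12 read 22.5, 17.998, 23.8, 19.6 and 22.2 CPM. The groups were apart at every step. Ccnb1 rose by 0.90 (SE 0.09, adjusted p 5.68e-09) at day 1 and by 2.16 (SE 0.09, adjusted p 1.75e-16) at day 12 on the log2 scale. Ccnb2, the second mitotic B-type cyclin, read 2.85, 2.64, 2.15, 2.74 and 2.15 CPM at day 0. At day 1 it read 5.97, 4.92, 4.79, 3.89 and 4.94 CPM, and at day 12 15.1, 15.0, 17.5, 16.1 and 16.1 CPM. Again no library of one group reached into another. Ccnb2 rose by 0.97 (SE 0.10, adjusted p 4.22e-09) at day 1 and by 2.67 (SE 0.09, adjusted p 5.69e-18) at day 12 on the log2 scale, the largest change among the 10 genes, above that of 99.4% of all genes tested. Ccna2 and Ccnb1 stood above 99% and 98.7% of genes at day 12.

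Cdk1, the mitotic kinase, read 15.05, 15.4, 14.4, 14.9 and 14.3 CPM at day 0, then 19.0, 18.1, 18.8, 19.7 and 18.98 CPM at day 1, and 26.8, 26.6, 29.9, 28.4 and 31.3 CPM at day 12. The groups did not overlap. Cdk1 rose at day 12 by 0.95 on the log2 scale (SE 0.05, adjusted p 1.86e-15), while its day 1 value of 0.35 (SE 0.05, adjusted p 2.52e-07) was under the fold limit. The 95% interval of Cdk1 at day 12 ran from 0.86 to 1.04, and that of Ccnb1, the nearest of the 3 mitotic cyclins, from 1.97 to 2.35. The difference between the genes was not itself tested.

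In the direct comparison of day 12 with day 1, these 6 genes were called higher at day 12. On the log2 scale the difference was 1.92 for Ccna2, 1.70 for Ccnb2, 1.26 for Ccnb1, 0.79 for Ccnd1, 0.71 for Ccne1 and 0.60 for Cdk1, with adjusted p from 5.41e-17 to 6.03e-10. These are separate cultures moved at different stages of maturation, not the same cells followed over time. The call for Cdk1 stood near the fold limit, and its value was 0.58 without the second library of day 1 or the third of day 12, 0.56 without the fifth of day 12, and 0.58 within the larger library number series, none of which passed the limit. For Ccnd2 the difference was 0.31 (SE 0.03, adjusted p 9.35e-10), for Cdk4 0.28 (SE 0.03, adjusted p 1.07e-09) and for Cdk2 0.16 (SE 0.05, adjusted p 0.00455), all under the fold limit.

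Library numbers in the sample names fell into a series of 11 and a series of 4, whose meaning the labels do not give. Within the series of 11, the day 12 log2 fold change was 2.62 for Ccnb2, 2.26 for Ccna2, 2.13 for Ccnb1, 0.90 for Cdk1, 0.71 for Ccne1, 0.70 for Ccnd1 and -0.61 for Ccnd3, and these 7 were called as in all libraries. At day 1 within that series it was 1.01 for Ccnb2, 0.97 for Ccnb1, -0.82 for Ccnd2 and -0.62 for Ccnd3, also called. The smaller series, with 1, 2 and 1 libraries in the 3 groups, gave no values of its own.

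The spread between libraries differed among the genes. The coefficient of variation within a group was 9.64% to 17.96% for Ccna2, 10.6% to 14.8% for Ccnb1 and 6.25% to 15.0% for Ccnb2, against 1.02% to 3.08% for Cdk4 and 1.76% to 4.21% for Ccnd2. Counting error alone would give 4.85% for Ccna2 at day 0, where the spread was 17.96%, and 6.43% for Ccnb2 at day 0, where it was 13.2%. The same libraries stood low for all 3 mitotic cyclins in the cooled groups. In day 1 the fourth library was lowest for Ccna2, Ccnb1 and Ccnb2, and in day 12 the second library was. These libraries were not low for the mitotic cyclins alone. The fourth day 1 library was also lowest for Ccnd1 and Cdk2, but highest for Cdk4 and for Cdk1, at 19.7 CPM. The second day 12 library was also lowest for Cdk1, Ccne1 and Cdk2, but highest for Ccnd1 and Ccnd3.

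Levels were compared between genes per length, as CPM per kilobase of the principal GENCODE transcript. At day 0 this level was 122 ± 2.85 for Ccnd3, 103 ± 1.81 for Ccnd2, 70.3 ± 2.68 for Ccnd1 and 51.6 ± 1.59 for Cdk4 (SD, n = 5). The other genes were far lower, with 5.90 ± 0.392 for Cdk2, 3.65 ± 0.204 for Ccne1, 3.39 ± 0.109 for Cdk1, 1.91 ± 0.282 for Ccnb1, 1.64 ± 0.217 for Ccnb2 and 1.51 ± 0.271 for Ccna2. In this order of levels per kilobase, Ccne1 and Cdk1 overlapped between libraries, as did Ccnb1, Ccnb2 and Ccna2. At day 1 the order ran Ccnd3 (80.4 ± 2.44), Ccnd1 (65.2 ± 1.505), Ccnd2 (57.3 ± 1.24), Cdk4 (56.0 ± 1.30), Cdk2 (6.84 ± 0.116), Cdk1 (4.32 ± 0.128), Ccne1 (3.62 ± 0.259), Ccnb1 (3.57 ± 0.379), Ccnb2 (3.20 ± 0.481) and Ccna2 (1.99 ± 0.224), in CPM per kilobase. Here Ccnd2 and Cdk4 overlapped between libraries, and so did Ccne1, Ccnb1 and Ccnb2. At day 12 the level per kilobase was 113 ± 3.72 for Ccnd1, 80.6 ± 2.83 for Ccnd3, 70.8 ± 2.98 for Ccnd2 and 68.1 ± 0.692 for Cdk4. Ccnd2 and Cdk4 again overlapped between libraries. The mitotic cyclins then stood near Cdk1 and Cdk2, with 10.4 ± 0.652 for Ccnb2, 8.52 ± 0.943 for Ccnb1, 7.66 ± 0.375 for Cdk2, 7.54 ± 0.727 for Ccna2, 6.54 ± 0.465 for Cdk1 and 5.91 ± 0.407 for Ccne1 per kilobase. Among these, each neighbour from Ccnb1 down to Ccne1 overlapped the next between libraries, and Ccnb2 lay above Ccnb1 in every library. The order depended on the length used. With all exon bases of a gene as the length, Ccnd2 led at day 0 with 69.2 per kilobase, followed by Ccnd1 with 55.8, Cdk4 with 32.6 and Ccnd3 with 29.5, and Cdk2 stood below Cdk1, at 2.13 against 3.003. The 3 D-type cyclins and Cdk4 were the 4 highest with either length in every group.

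Per length, the make-up of each family shifted. The summed level of the 3 D-type cyclins was 296 ± 3.45 CPM per kilobase at day 0 (SD, n = 5). It was 203 ± 1.996 CPM per kilobase in the day 1 group and 264 ± 8.33 in the day 12 group. Ccnd1 gave 23.8% ± 0.967 of that sum at day 0, 32.1% ± 0.724 at day 1 and 42.7% ± 0.482 at day 12. Ccnd3 gave 41.4% ± 0.664 at day 0 and 30.5% ± 0.671 at day 12, and Ccnd2 gave 34.8% ± 0.399 and 26.8% ± 0.568. The library ranges of Ccnd1's share did not overlap between any groups. The A-, B- and E-type cyclins summed to 8.70 ± 0.740 CPM per kilobase at day 0, 12.4 ± 1.08 at day 1 and 32.4 ± 2.42 at day 12. Ccne1 supplied 42.0% ± 2.66 of this sum at day 0 and 18.3% ± 0.7102 at day 12, and Ccnb2 18.8% ± 1.96 and 32.2% ± 1.102. Of the 3 kinases, Cdk4 made up 84.7% ± 0.739 of the sum at day 0 and 82.8% ± 0.430 at day 12, and Cdk1 5.57% ± 0.198 and 7.95% ± 0.578. These shares use the principal transcripts and would differ with other lengths.

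**Figure D4:**
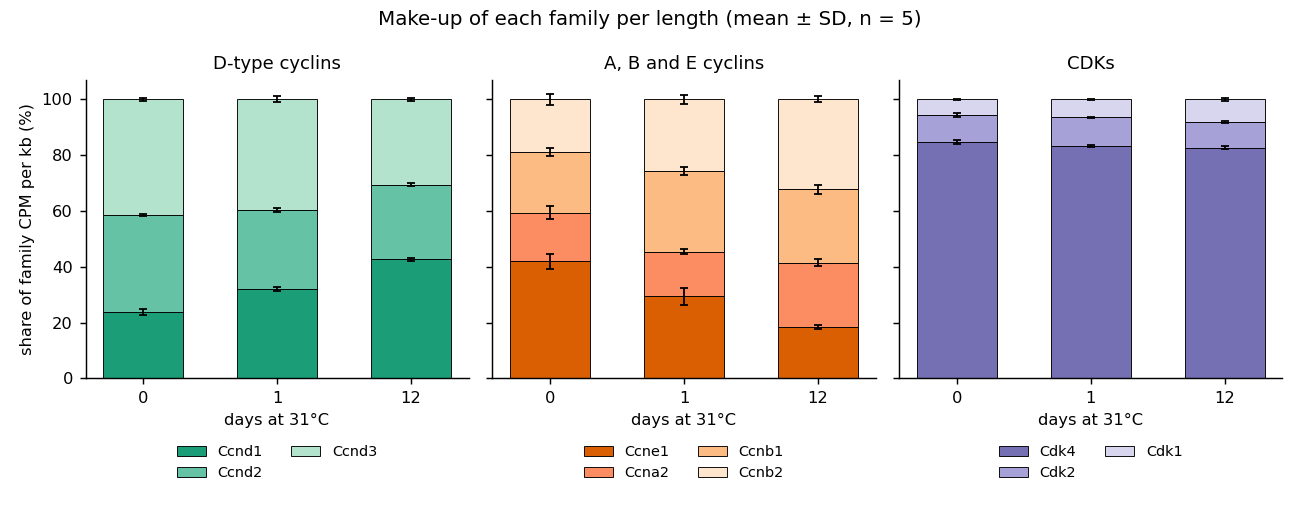
Stacked bars give the mean share of each gene in the summed level per kilobase of its family (vertical axis, %), against days at 31°C, and error bars are the SD over 5 libraries. Ccnd1 grows from 23.8% to 42.7% of the D-type cyclins, and Ccne1 shrinks from 42.0% to 18.3% of the A-, B- and E-type cyclins.

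Among the inhibitors of CDKs, 8 genes were tested, and 3 were called lower and 1 higher at day 12, against 16.2% and 13% of all genes. After 1 day 2 were called lower, against 13.4% of all genes. The median log2 fold change of the 8 inhibitors at day 12 was -0.41, beside 0.01 over all genes. Cdkn1a, which encodes p21, an inhibitor induced by p53, had a mean of 842 CPM at day 0, 765 CPM at day 1 and 332 CPM at day 12. It fell at day 12 by 1.34 on the log2 scale (adjusted p 4.69e-22). Cdkn2b, an inhibitor of Cdk4 and Cdk6, fell at day 12 by 0.73 (adjusted p 4.31e-15), and Cdkn1c, which encodes p57, fell by 1.20 at day 1 and by 0.64 at day 12. Cdkn1b, which encodes p27, fell at day 1 by 0.59 (adjusted p 1.30e-10), and its day 12 log2 fold change of -0.45 was under the fold limit. Cdkn2a and Cdkn2c had log2 fold changes of 0.22 and 0.16 at day 12 and were not called. Cdkn3, a phosphatase that acts on CDKs, rose at day 12 by 1.69 (adjusted p 1.07e-11).

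Of 11 tested genes that control CDK activity through phosphate groups or docking, 4 were called higher at day 12 and 3 at day 1, against 13% and 7.71% of all genes, with 0 lower at either time by edgeR or DESeq2. At an unadjusted p under 0.05, 2 of them were lower at day 1 and 0 at day 12. Cdc25c, a phosphatase that activates Cdk1, rose by 1.31 at day 1 and by 2.45 at day 12 on the log2 scale, from a mean of 0.506 CPM at day 0. Plk1, a mitotic kinase, rose by 0.74 at day 1 and by 2.34 at day 12. Wee1, which holds Cdk1 inactive, rose at day 1 by 0.68 (adjusted p 1.33e-09), and its day 12 value of 0.45 was not called. Pkmyt1, another kinase that inhibits Cdk1, rose at day 12 by 1.03, and the docking subunit Cks1b rose by 0.69.

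Of 20 tested retinoblastoma family, E2F and related genes, 7 were called higher and 1 lower at day 12, against 13% and 16.2% of all genes, with a median log2 fold change of 0.16. After 1 day 4 were called lower and 0 higher by edgeR, against 13.4% and 7.71% of all genes. DESeq2 also called 0 higher, and 10 were higher at an unadjusted p under 0.05. E2f1, an activating E2F, had 35.8 CPM at day 0, 16.3 CPM at day 1 and 15.9 CPM at day 12, and fell by 1.14 at day 1 and by 1.17 at day 12 on the log2 scale (adjusted p 1.79e-16 and 4.48e-17). E2f8 and E2f7, which act as repressors, rose at day 12 by 2.47 and 1.99, and Foxm1 and Mybl2, which drive mitotic genes, by 2.18 and 2.08. Tfdp1, the dimer partner of E2F proteins, rose by 0.73. Rb1, which encodes the retinoblastoma protein, had log2 fold changes of -0.29 at day 1 and -0.20 at day 12 and was not called, and its relative Rbl1 fell at day 1 by 0.63.

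Of 24 tested genes of cyclin destruction, 3 were called higher and 0 lower at day 12 by edgeR, also 0 lower by DESeq2, and 3 were lower at an unadjusted p under 0.05. The count of higher genes was near the 13% of all genes called higher, and the median log2 fold change was 0.23. The 3 higher ones were Cdc20, which directs the anaphase-promoting complex to B-type cyclins (2.27), Ube2c (1.36) and Fbxo5 (0.76, all log2 fold changes). Cdc20 was also called at day 1, at 0.73 (adjusted p 4.13e-09), the only one of the 24, against 7.71% of all genes called higher. The list of S phase and G2/M marker genes holds 23 tested genes when the 4 members in it are left out. Of these, 19 were called higher and 0 lower at day 12 by edgeR, and 0 were lower by DESeq2 or at an unadjusted p under 0.05, with a median log2 fold change of 1.52 beside 0.01 over all genes, and all 23 were above 0. The top ones were Tk1 (2.77), Birc5 (2.57), Kif11 (2.05), Bub1 (2.03) and Aurkb (1.99). At day 1, 2 of the 23 were called higher, Birc5 (0.80) and Nusap1 (0.66), near the 7.71% of all genes called higher. The day 1 median was 0.30. Earlier results of these data had already shown a rise of cell cycle genes at day 12, so the day 12 count is no independent evidence.

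Other cyclins and CDKs, many of which act in transcription or other processes, were called about as often as all genes, of which 13% were called higher and 16.2% lower at day 12. Of 17 other cyclins tested, 3 were higher and 3 lower at day 12, with a median log2 fold change of -0.15. Ccnf rose by 1.02, Ccnyl1 by 1.01 and Ccne2 by 0.67, while Ccng1, a p53 target, fell by 0.68 at day 1 and by 1.42 at day 12, from 790 CPM at day 0 to 295 CPM at day 12. Ccnl2, a splicing cyclin, fell at day 12 by 0.63. Of 20 other CDKs tested, 2 were higher and 3 lower at day 12 (median -0.04), among them Cdk20 (-0.83), Cdk18 (-0.70) and Cdkl3 (0.63, all log2 fold changes). Among 15 tested genes that feed into D-type cyclin transcription, Egr1 rose by 1.56 and Myc by 0.94 at day 12, Fosl1 fell by 0.68, and the other 12 were not called.

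**Figure D5:**
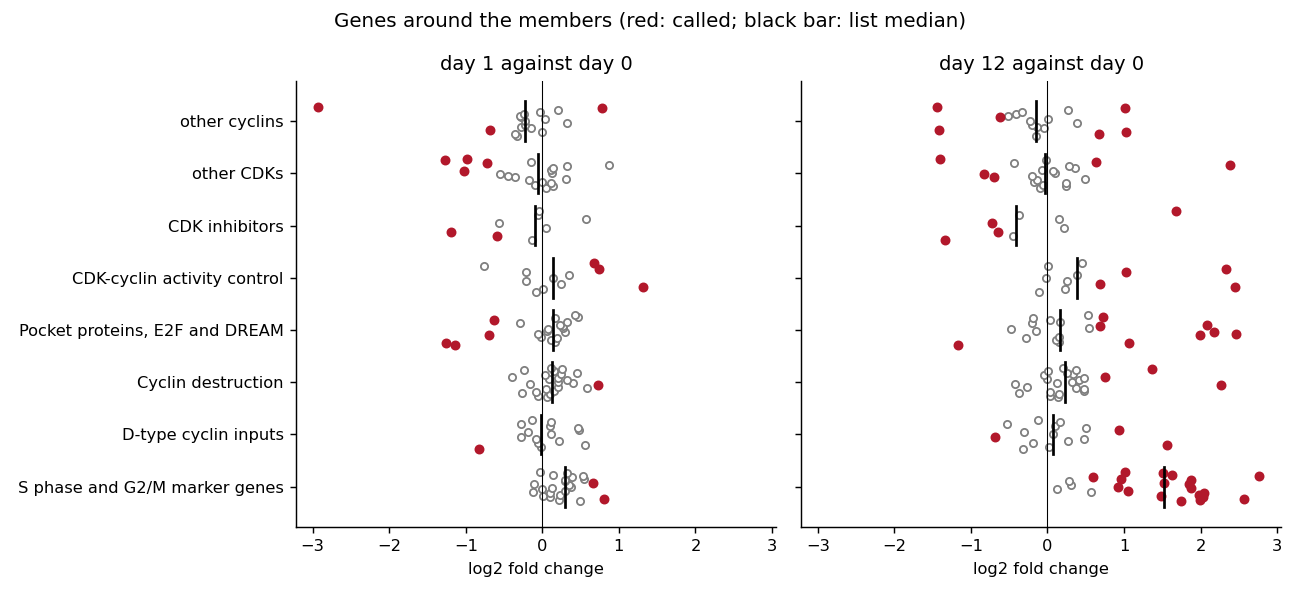
Each point is a gene of the list named on the vertical axis, placed by its log2 fold change at day 1 (left) or day 12 (right) against day 0. Red points were called, and black bars mark list medians. The S phase and G2/M markers lie right of 0 at day 12, with a median of 1.52.

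Genes with the most similar profiles over the 15 libraries were found by the root mean square difference of log2 CPM, each gene centred on its own mean, among 12131 genes of at least 1 CPM. The 3 nearest genes were Foxm1, Aurkb and Kif4 for Ccna2, with differences from 0.15 to 0.169, against a size of 1.03 for the Ccna2 profile itself. For Ccnb1 they were led by the kinesin Kif22 (0.134). For Ccnb2 they were led by Fam59b (0.169), followed by the mitotic kinesin Kif20a (0.212) and Plk1 (0.214). Cdk1 lay nearest to Ppp4r1, Myof and Mcm6 (0.0629 to 0.0686), the last a subunit of the replicative helicase. Ccnd1 and Ccne1 shared Lgals1 among their 3 nearest, at 0.0515 and 0.0814. Ccnd2 was nearest to Ttc21b (0.0523), Ccnd3 to Hr (0.0419), Cdk2 to Kif3b (0.0523) and Cdk4 to Mcm3ap (0.0364). No member was among the 3 nearest of another. Such distances describe 15 libraries in 3 groups, and genes with the same group means come out as near.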

How the data were processed

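RNA-seq libraries of 15 adipocyte cultures in 3 groups of 5 were grouped by their labels. The authors aligned reads to mm10 with TopHat2 2.0.13 and Bowtie2 2.2.1 and deposited raw counts of reads per gene from HTSeq, and these counts were the values used. The deposited regularized log2 values and the authors' DESeq2 tables (fold changes, p-values) were not used. Total counts per library ran from 64648178 to 133270973, and a count of 0 would allow up to 0.0428 CPM (3 counts) in the shallowest library, which covers counting error only.

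Genes were filtered with filterByExpr (minimum count 10), which left 14293 of 18804, and libraries were scaled by TMM (factors 0.9459 to 1.094). All 15 libraries entered a fit without covariates in edgeR 4.0.16 (R 4.3.3), by the quasi-likelihood test with Benjamini-Hochberg adjustment, called at 0.05 and a fold change of 1.5. Standard errors were the size of the log2 fold change over the square root of F. Tested on simulated data for day 12 against day 0 (14224 genes), it called 94.85% of genes changed by 1 and 98.04% of those changed by 2 on the log2 scale, with 0 false calls. Alternatives were other scalings, DESeq2 1.42.0, glmTreat, other filters, a replicate block, the library number series, and leaving out each library. Exons and copies came from GENCODE M21 (blastn 2.17.0), promoters from RefSeq. No libraries had identical values. Replicate numbers did not pair the samples: deviations of same-numbered libraries correlated at -0.0255 to 0.0436.

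The members and gene lists were chosen with earlier results of these data known. All 10 members are described; from each list, up to 5 genes called at day 12 in each direction with a mean of at least 1 CPM are named, with partners and inhibitors of the members, and others (Cdkn1c, Rbl1 and Wee1 at day 1, Nusap1) were named after their values were seen. One gene that the rule names is not reported here.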

Additional observations from a re-analysis of the deposited data

Results flagged for a closer look

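In groups of 5 libraries, a library was set apart when its gap to the nearest other exceeded the 95% critical value of Dixon for the share of the group's range, which chance gives in about 1 of 20 groups. Of 30 groups checked, 2 had such a library: Ccnd3 at day 12, where the second library read 180.7 CPM and its gap was 0.753 of the range, and Cdk2 at day 12, where the first library read 18.65 CPM with a gap of 0.912. Without them no call of Ccnd3 or Cdk2 against day 0 changed.

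The change from day 0 differed between day 12 and day 1 for 6 genes, tested by the contrast of day 12 with day 1 in edgeR. The difference in log2 fold change was 1.92 for Ccna2 (adjusted p 1.02e-14), 1.256 for Ccnb1 (5.48e-12), 1.702 for Ccnb2 (2.65e-14), 0.7879 for Ccnd1 (5.41e-17), 0.7058 for Ccne1 (6.03e-10) and 0.5974 for Cdk1 (2.44e-11). Every day 12 library was above every day 1 library in 9 of the 10 members, these 6 included, as in 26.5% of all genes tested, and 10.6% of all genes were called higher.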

How the results depend on the processing

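The counts of members called kept within 1.5 times of their values, or both stayed at 0, except in 7 cases. At day 1, 1 was higher with a minimum mean of 10 CPM (which leaves out Ccnb2 and Ccne1), 6 were higher by adjusted p alone, and 1 was lower by glmTreat. At day 12 against day 0, 0 were lower with scaling to total counts, to reference genes or by glmTreat, and 2 by adjusted p alone. The sign turned for values near 0 that were not called: Ccne1 at day 1 was 0.01124 with total counts and ran from -0.04107 to 0.02304 on leaving out a library, and Ccnd3 for day 12 against day 1 was -0.004998 with DESeq2 size factors, -0.005006 with the DESeq2 test and -0.01872 to 0.01855 on leaving out a library. With the replicate block no call of a member changed, and 6 were higher at day 12. The median log2 fold change of all genes was 0.01 at day 12 and for day 12 against day 1, and 0.205 and 0.182 with total counts. With reference genes it was 0.163 for day 12 against day 1 and -0.107 at day 1, beside -0.01. Of all genes called at day 12, 55.6% were lower, or 35.9% with total counts, and for day 12 against day 1 44.7%, or 27.3% with total counts and 29% with reference genes. At day 1 the share was 63.5%, or 75.8% with reference genes. The causes were not tested. Levels are relative to the other transcripts of a library, so total RNA per cell is unknown.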
